A study of Danio rerio with 16 samples.

Results

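The genes described here are those whose symbols begin with the family names of cilium, axoneme, intraflagellar transport, BBSome, centrosome and coiled-coil domain proteins (ccdc, dnah, dnai, dnal, dnaaf, ift, bbs, cfap, rsph, tekt, spag, spata, cep and arl13). They were chosen by symbol alone, among probe sets assigned to a single gene, and each gene was represented by its probe set of highest mean. The rule found 44 genes, with 50 probe sets, among 4922 genes and 7922 probe sets tested. By role, 4 genes belong to intraflagellar transport, 2 to the BBSome, 3 to dynein arm assembly, 7 to the axoneme, 5 carry spag or spata names, 5 carry cep names and 18 carry ccdc names. No dnah, dnai, dnal, tekt or arl13 gene was among the probe sets analysed here. The name ccdc describes a protein fold, and several genes that carry it have no known part in cilia.

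Cilia are microtubule projections that grow from a basal body, which is a modified centriole. Particles of intraflagellar transport carry cargo along the shaft, the BBSome moves membrane receptors in and out of it, and motile cilia add dynein arms, radial spokes and a central apparatus that make the shaft beat. In the vertebrate brain the ependymal cells lining the ventricles carry motile cilia that move cerebrospinal fluid, and most neurons and radial glia carry a single primary cilium that receives signals.

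Whole brains of adult zebrafish 4 to 6 months old were measured on 16 Affymetrix arrays, with 2 female and 2 male pools of 2 to 5 brains for each of the strain labels TM1, SH, Nadia and Gaighatta. The labels give TM1 and SH a domesticated rearing history and Nadia and Gaighatta a wild one, and the fish of all strains were reared in a common facility and scored in a behavior assay before sampling. The TM1 strain carries, by the methods, a GFP transgene under a β-actin promoter, so GFP should mark its pools. Pools are named here by label, sex (F or M) and replicate number, and every value is a log2 expression value made by RMA, so a difference of 1 is a 2-fold change.

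The strain labels went against the transgene. A GFP control probe set read 8.58 to 10.46 in the pools labelled Gaighatta and at most 3.36 in all others. Matched by value within 0.0001 over 1645 probe sets, 0 of 16 arrays carried the strain name under which the same values are printed in the supplementary table, while 16 of 16 carried the same sex. There the pools labelled TM1, SH, Nadia and Gaighatta are called Gaighatta, Nadia, SH and TM1. The strain groups stay intact under either naming, but the direction of every difference by rearing history turns round. Array medians lay between 6.08 and 6.20. Neuronal markers (5 of 10 measured) had list means of 10.38 to 10.63 in the pools labelled TM1 and 10.58 to 10.78 in the others. Microglial markers (4 of 8 measured) had list means of 6.67 to 7.51 in the pools labelled TM1 and 6.17 to 6.72 in the others. Those of meninges (5 of 7) were 6.42 to 7.13 in TM1 and 6.81 to 7.91 in the others. Those of photoreceptors and pineal (6 of 9) were 6.06 to 6.44 in TM1 and 4.87 to 6.40 in the others. Those of myelin (2 of 7) were 7.81 to 8.16 in TM1 and 8.12 to 8.34 in the others. Those of red blood cells (3 of 6) were 8.01 to 9.52 over all pools. Pituitary markers (4 of 8) had list means of 3.89 to 4.69 in TM1, 4.32 to 9.18 in SH, 4.33 to 8.27 in Nadia and 3.51 to 4.75 in Gaighatta. Radial glial markers (6 of 7) had list means of 10.02 to 10.46 in the pools labelled domesticated and 10.48 to 10.68 in those labelled wild. Their part in the results was not tested. In whole-brain RNA, fewer cells of a type and less RNA per cell cannot be told apart.

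The first question was whether these genes differed among strains, as the arrays were made to ask of brain expression in general. Of the 44 genes, 17 (38.6%) differed in at least 1 of the 6 strain pairs at an adjusted p under 0.05, against 34.6% of all probe sets and 32.9% of all genes represented by 1 probe set each. A difference of at least 1 on the log2 scale was found for 2 of them, ccdc39 and cep135 (4.55%, against 5.44% of all probe sets). The median of the largest difference between strain means was 0.29 for the 44 genes and 0.31 for all probe sets. The share of these genes that differed was thus near the background, and the account below is of single genes and not of the group moving together. The strain means of the 44 genes are drawn beside each other by role, and the largest difference of each gene by role.

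**Figure D1:**
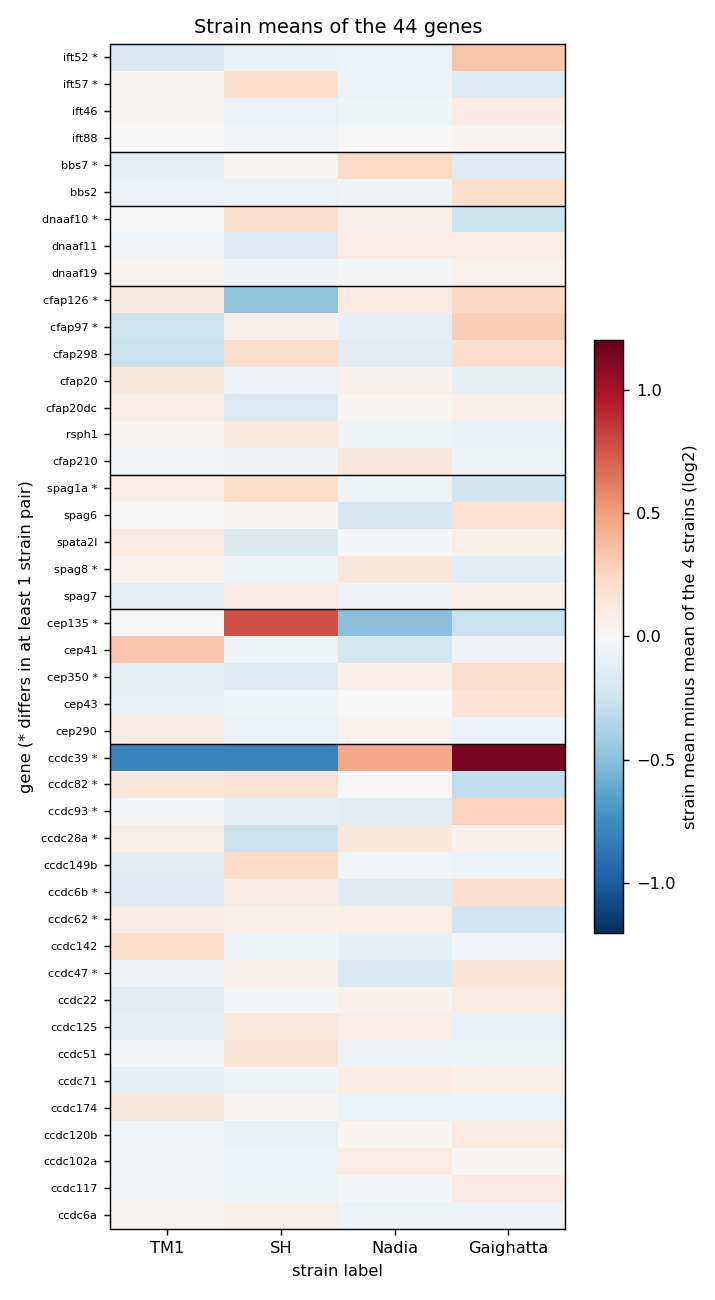
Mean of the 4 pools of each strain label minus the mean of the 4 strain means, on the log2 scale, for the 44 genes grouped by role; an asterisk marks the 17 genes that differed in at least 1 strain pair. Most cells lie near 0, and the deepest colors belong to ccdc39 (5.55, 5.55, 6.80 and 7.48 in TM1, SH, Nadia and Gaighatta) and cep135 (4.92, 5.70, 4.43 and 4.66).

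**Figure D2:**
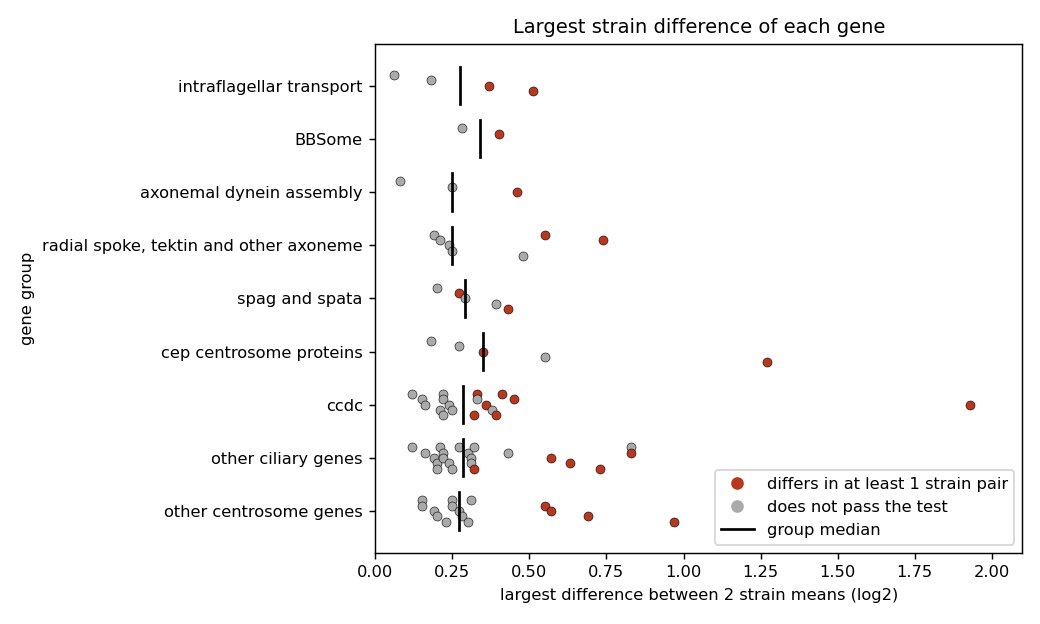
Largest difference between 2 strain means for each gene, on the log2 scale, by role, with the group median as a bar and the genes that passed the test in red. ccdc39 at 1.93 and cep135 at 1.27 stand to the right of all others, and the last rows hold 22 further ciliary and 15 further centrosome genes that the symbol rule does not take in.

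The largest strain difference was that of ccdc39, whose protein is part of the molecular ruler that spaces the inner dynein arms along motile axonemes. In the pools labelled TM1 its values were 5.15, 5.62, 5.80 and 5.62 (F1, F2, M1 and M2). In those labelled SH they were 5.37, 5.56, 5.77 and 5.49. The pools labelled Nadia read 6.60, 6.87, 6.97 and 6.74, and those labelled Gaighatta 7.27, 7.31, 7.82 and 7.51. The pools labelled Gaighatta all lay above those labelled Nadia, which in turn all lay above the TM1 and SH pools, and TM1 and SH overlapped. The strain means were 5.55 ± 0.28, 5.55 ± 0.17, 6.80 ± 0.16 and 7.48 ± 0.25 (SD, n = 4 each). The difference of TM1 from Gaighatta was 1.93 ± 0.15 (SE, adjusted p = 2.36e-07), and that of Nadia from Gaighatta was 0.68 (adjusted p = 0.00528). In all, 5 of the 6 pairs passed the test, the exception being TM1 against SH. The gene has 1 probe set. Values of single probes were not analysed here, so whether sequence differences under the probes had a part in this or in any difference below was not tested.

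None of the 7 axonemal genes had the order of strains seen in ccdc39. The called differences of cfap126 and cfap97 from Gaighatta did go the same way as those of ccdc39. cfap126, which encodes a protein that docks basal bodies in multiciliated cells of the mouse, was low in the pools labelled SH, at 4.77, 4.83, 4.83 and 4.92. It read 5.73, 5.58, 5.30 and 5.17 in TM1, 5.15, 5.45, 5.22 and 5.92 in Nadia, and 5.35, 5.57, 5.33 and 6.04 in Gaighatta. All 4 SH pools lay below all 12 others. The difference of SH from Gaighatta was -0.74 ± 0.18 (adjusted p = 0.00855), and TM1 was higher than SH by 0.61 (adjusted p = 0.0487). The latter call was lost with sex as a term (adjusted p = 0.0513) and without any one of 12 pools (all but TM1 M2, Nadia F1, Nadia M2 and Gaighatta M2), with adjusted p of 0.0512 to 0.119. Without Gaighatta M2, the pool in which cfap126 was highest, the difference of SH from Gaighatta was -0.58 (adjusted p = 0.029).

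cfap97, a relative of the Drosophila hemingway gene of sperm flagella, was highest in the pools labelled Gaighatta, at 6.03, 5.91, 5.76 and 5.95. It read 5.48, 5.49, 5.20 and 5.27 in TM1, 5.60, 5.85, 5.70 and 5.51 in SH, and 5.57, 5.34, 5.40 and 5.69 in Nadia. The Gaighatta pools lay above those of TM1 and Nadia and overlapped with those of SH. The difference of TM1 from Gaighatta was -0.55 ± 0.11 (adjusted p = 0.0018) and that of Nadia from Gaighatta -0.41 (adjusted p = 0.0156), the latter not called without Nadia F2 (adjusted p = 0.0573) or Gaighatta F1 (adjusted p = 0.0515). The other 5 axonemal genes did not pass. cfap298, needed for outer dynein arms, had the largest difference among these, with TM1 at 6.21 ± 0.06 and SH at 6.69 ± 0.32 (difference 0.48, adjusted p = 0.0988). rsph1, a protein of the radial spoke head, differed by at most 0.21 (adjusted p = 0.321). cfap210, which binds inside the axonemal microtubules, had the smallest difference of the 7 at 0.19 (adjusted p = 0.291). cfap20, also a protein of the axonemal microtubules, had the highest mean at 8.05 and a largest difference of 0.25 (adjusted p = 0.134).

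**Figure D3:**
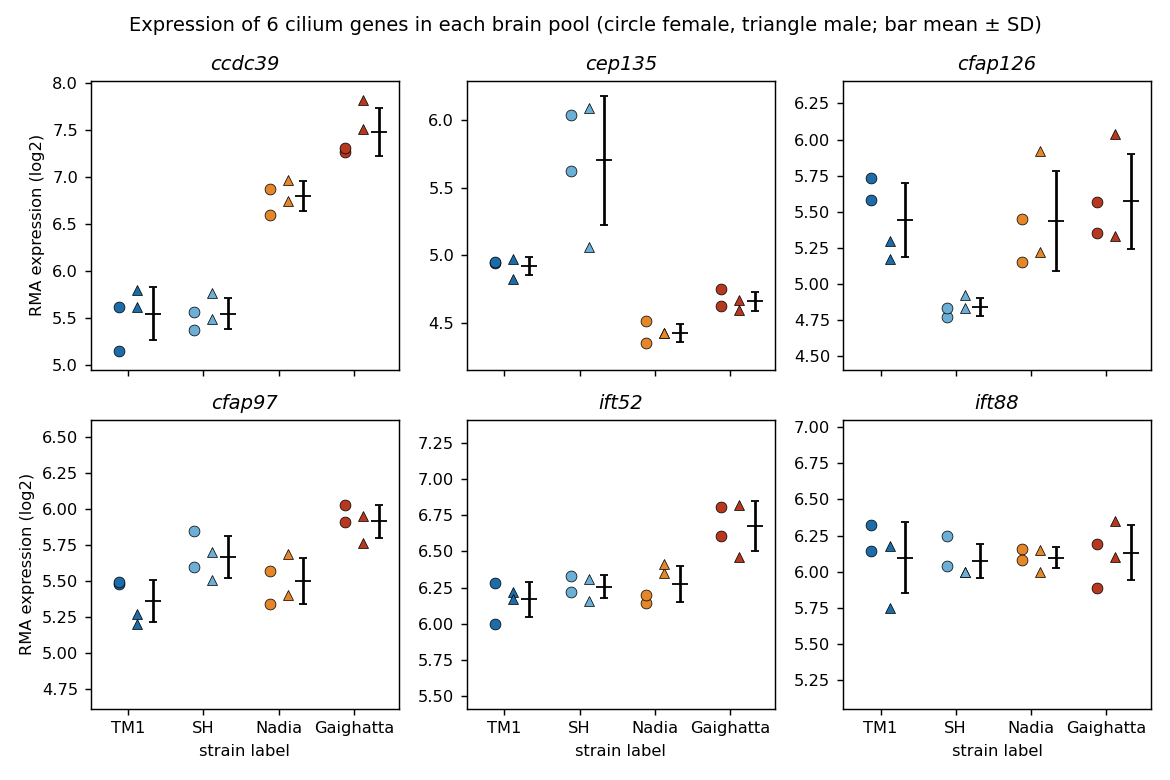
RMA expression on the log2 scale in each of the 16 pools for ccdc39, cep135, cfap126, cfap97, ift52 and ift88, by strain label, with circles for female and triangles for male pools and bars for the mean ± SD of 4 pools; the vertical ranges differ between genes. ccdc39 steps up from TM1 and SH to Nadia and Gaighatta, cfap126 is low in SH, ift52 is high in Gaighatta, and ift88 lies near 6.10 in all.

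Of the 4 intraflagellar transport genes, ift52 and ift57 differed among strains, in opposite directions, and ift46 and ift88 did not pass. All 4 encode proteins of the complex that drives transport toward the tip. The ift52 values in the pools labelled Gaighatta were 6.81, 6.61, 6.46 and 6.82. They were 6.00, 6.28, 6.22 and 6.17 in TM1, 6.33, 6.22, 6.16 and 6.31 in SH, and 6.14, 6.20, 6.35 and 6.41 in Nadia. All Gaighatta pools lay above the 12 others, by 0.51 ± 0.10 over TM1 (adjusted p = 0.00212), 0.42 over SH (adjusted p = 0.00851) and 0.40 over Nadia (adjusted p = 0.013) in strain means.

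ift57 was instead lowest in the pools labelled Gaighatta, at 5.23, 5.28, 5.08 and 5.30. Those labelled SH read 5.47, 5.51, 5.73 and 5.65, all above the Gaighatta pools, and the TM1 and Nadia pools lay between 5.12 and 5.52. SH exceeded Gaighatta by 0.37 ± 0.10 (adjusted p = 0.0146). ift46, with the highest mean of the 4 at 6.85, differed by at most 0.18 (adjusted p = 0.283). ift88 differed by at most 0.06 ± 0.12 (adjusted p = 0.785), the smallest largest difference of all 44 genes, with strain means of 6.10, 6.07, 6.10 and 6.13 in TM1, SH, Nadia and Gaighatta.

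Both BBSome genes taken in by the symbol rule, bbs2 and bbs7, encode subunits of its core. bbs7 read 5.39, 5.30, 5.28 and 5.20 in the pools labelled Nadia and 4.82, 4.84, 4.87 and 5.03 in those labelled Gaighatta, with no overlap, and Nadia was higher by 0.40 ± 0.12 (adjusted p = 0.0269). The TM1 and SH pools spanned 4.60 to 5.28, across both. This call was lost without any one of Nadia F1, F2 or M1 or Gaighatta F1, F2 or M1 (adjusted p of 0.0547 to 0.0693). bbs2 differed by at most 0.28 (adjusted p = 0.0685), and its strain means ran from 5.10 in TM1 to 5.38 in Gaighatta.

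Among the 3 genes of dynein arm assembly, whose proteins build the motors in the cytoplasm before they enter the cilium, dnaaf10 differed between strains on 1 of its 3 probe sets. That probe set, of highest mean at 4.94, read 5.26, 5.05, 5.01 and 5.21 in the pools labelled SH and 4.70, 4.91, 4.70 and 4.39 in those labelled Gaighatta. SH was higher by 0.46 ± 0.12 (adjusted p = 0.0164), and without Gaighatta M2 the difference was 0.36 (adjusted p = 0.0544). The other probe sets of dnaaf10 had largest differences of 0.31 (adjusted p = 0.102) and 0.10 (adjusted p = 0.618), and the last of these was lower in SH. The probe set that passed carries the suffix that the array maker gives to probes shared by several transcripts. dnaaf11 differed by at most 0.25 (adjusted p = 0.27) and dnaaf19 by at most 0.08 (adjusted p = 0.741), the smallest of the 3.

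Of the 5 spag and spata genes, spag1a and spag8 differed. spag1a, also an assembly factor of dynein arms, read 7.17, 7.05, 7.23 and 7.33 in the pools labelled SH and 6.54, 6.69, 6.97 and 6.87 in those labelled Gaighatta. The SH pools all lay above the Gaighatta pools, by 0.43 ± 0.11 in the mean (adjusted p = 0.0121). spag8, a protein inside axonemal microtubules, was higher in Nadia than in Gaighatta by 0.27 ± 0.08 (adjusted p = 0.045), at 3.66 to 3.80 against 3.30 to 3.58. That call was lost without any one of 12 pools (all but TM1 M1, SH F1, Nadia F1 and Gaighatta F1), with adjusted p up to 0.13. spag7 had the highest mean at 8.36 and the smallest difference at 0.20 (adjusted p = 0.291). spata2l reached 0.29 (adjusted p = 0.13) on a probe set shared by several transcripts.

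The centrosome genes held the second largest difference, that of cep135, a protein needed to build the centriole. The pools labelled SH read 6.04, 5.62, 5.06 and 6.09. Those labelled TM1 read 4.94, 4.95, 4.82 and 4.97, those labelled Nadia 4.51, 4.35, 4.42 and 4.42, and those labelled Gaighatta 4.75, 4.62, 4.67 and 4.59. All SH pools lay above all others and all Nadia pools below all others, and the SH pools were spread more widely (SD 0.48) than those of the other strains (SD 0.07 each). SH exceeded Nadia by 1.27 ± 0.16 (adjusted p = 0.000164), Gaighatta by 1.04 (adjusted p = 0.00029) and TM1 by 0.78 (adjusted p = 0.00934). The fit takes a variance shared by all 4 strains, which is smaller than that of the SH pools. The errors of these SH differences are thus understated and their adjusted p too low.

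cep350, which anchors microtubules at the centrosome, read 5.95, 6.00, 6.02 and 6.43 in the pools labelled Gaighatta and 5.83, 5.85, 5.65 and 5.67 in those labelled SH. Gaighatta was higher by 0.35 ± 0.11 (adjusted p = 0.0365). The call was lost without Gaighatta M2 (adjusted p = 0.113), SH M1 (adjusted p = 0.0962) or SH M2 (adjusted p = 0.0952), and the second probe set of cep350 had a largest difference of 0.19 (adjusted p = 0.296). cep41, which is needed for glutamylation of ciliary tubulin, reached 0.55 ± 0.18 without passing (adjusted p = 0.1), and its TM1 pools read 4.20, 5.10, 4.01 and 4.78. cep43, a centriole protein with the highest mean of the 5 at 7.28, reached 0.27 (adjusted p = 0.0781). cep290, a protein of the gate at the base of the cilium, had the smallest difference at 0.18 (adjusted p = 0.214).

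Of the 18 ccdc genes, 7 differed among strains, ccdc39 and 6 others with largest differences of 0.32 to 0.45. ccdc82 read 6.53, 6.49, 6.35 and 6.63 in the pools labelled SH and 6.31, 6.16, 5.72 and 6.00 in those labelled Gaighatta, and SH was higher by 0.45 ± 0.14 (adjusted p = 0.0302). This call was lost without any one of SH F1, F2 or M2 or Gaighatta M1 or M2 (adjusted p of 0.0577 to 0.0989). ccdc93, part of a complex that recycles endosomal cargo, read 6.96, 6.70, 7.00 and 7.19 in Gaighatta and 6.46, 6.39, 6.71 and 6.62 in Nadia. Gaighatta was higher by 0.41 ± 0.11 (adjusted p = 0.0192), with adjusted p of 0.0652 without Nadia F2 and 0.0615 without Gaighatta M2. ccdc22, another subunit of that complex, differed by at most 0.25 (adjusted p = 0.0757) and its second probe set did not pass either (adjusted p = 0.574).

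ccdc28a was low in the pools labelled SH, at 8.06, 8.23, 8.07 and 8.01, below all 12 others (8.26 to 8.61). Nadia was higher by 0.39 ± 0.09 (adjusted p = 0.018), TM1 by 0.34 (adjusted p = 0.0363) and Gaighatta by 0.31 (adjusted p = 0.0281), and the difference of Nadia was not called without SH M2 (adjusted p = 0.058). That of TM1 was lost without the pools labelled Gaighatta (adjusted p = 0.0615) or without any one of TM1 F1, F2 or M2 or SH F1, M1 or M2 (adjusted p of 0.0567 to 0.101), and that of Gaighatta without any one of SH F1, M1 or M2 or Gaighatta F1, F2 or M2 (adjusted p of 0.0534 to 0.0806). With spag7 it had the highest mean of the 44, 8.36, which is a reading of its own probes and no rank of RNA amounts. ccdc6b, a gene whose human counterpart is known from fusion genes in thyroid cancer, was higher in Gaighatta (7.46, 7.60, 7.50 and 7.51) than in TM1 (7.24, 7.27, 6.94 and 7.19) by 0.36 ± 0.11 (adjusted p = 0.0314). That call was lost without any one of TM1 M1 or M2 or any one Gaighatta pool (adjusted p of 0.0519 to 0.0889), and its second probe set reached 0.27 (adjusted p = 0.153). Its paralog ccdc6a had the smallest difference of the ccdc genes, 0.12 (adjusted p = 0.483).

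ccdc47, a protein of the endoplasmic reticulum membrane, read 7.73, 7.70, 7.79 and 7.76 in the pools labelled Gaighatta, all above the 12 others, although the lowest of them and SH M1 both round to 7.70. They exceeded Nadia by 0.32 ± 0.08 (adjusted p = 0.0148). Without Nadia M1 that difference was 0.25 (adjusted p = 0.0538). ccdc62 was higher in TM1 than in Gaighatta by 0.33 ± 0.11 (adjusted p = 0.0412), a call lost without any one of TM1 F2 or M1 or Gaighatta F1, F2 or M1 (adjusted p of 0.065 to 0.116). The remaining 11 ccdc genes did not pass, with largest differences of 0.12 to 0.38. Among them was ccdc51, a mitochondrial channel protein, with 0.22 (adjusted p = 0.383) on its first probe set and an adjusted p of 0.2 on its second.

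By pair, Gaighatta entered most of the differences, as it did across the array. SH and Gaighatta differed in 11 of the 44 genes (17.1% of all probe sets), Nadia and Gaighatta in 8 (14.3%), TM1 and Gaighatta in 6 (20.9%), TM1 and SH in 3 (6.64%), SH and Nadia in 3 (5.66%) and TM1 and Nadia in 1 (3.17%). Pairs that share a strain are not independent. The 3 genes that separated TM1 from SH were cep135, cfap126 and ccdc28a, and ccdc39 was the gene that separated TM1 from Nadia. In 6 genes (13.6%, against 11.8% of all probe sets) all pools of a strain lay above or below all other pools. These were ift52, ccdc39 and ccdc47 for Gaighatta, cfap126 and ccdc28a for SH, and cep135 for both SH and Nadia. Single pools moved these counts. TM1 against SH fell to 1 gene without TM1 F1, TM1 F2, SH F1 or SH M2, TM1 against Nadia rose to 2 without TM1 M1, TM1 M2 or SH M1, and SH against Gaighatta fell to 6 without Gaighatta M2. Nadia against Gaighatta fell to 4 without Nadia M1 and to 5 without Nadia F2, Gaighatta F2, Gaighatta M1 or Gaighatta M2.

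The second question was whether the 2 strains labelled domesticated differed from the 2 labelled wild. Of the 44 genes, 6 differed, against 12.8% of all probe sets. cep135, spag1a and ift57 were higher in the pools labelled domesticated (6.82%, against 5.3% of all probe sets) and ccdc39, ift52 and cep350 were lower (6.82%, against 7.46%). By the names in the supplementary table these directions are the reverse. The 8 pools labelled domesticated and the 8 labelled wild did not overlap for ccdc39 and cep135 (4.55%, against 0.947% of all probe sets).

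The ccdc39 values had a lowest, median and highest of 5.15, 5.59 and 5.80 in the pools labelled domesticated and 6.60, 7.12 and 7.82 in those labelled wild, a difference of -1.59 ± 0.10 (SE, adjusted p = 9.94e-08). For cep135 they were 4.82, 5.01 and 6.09 against 4.35, 4.55 and 4.75, a difference of 0.77 ± 0.11 (adjusted p = 0.00032), and SH lay above TM1. Both strains of a side thus stood on the same side for these genes. A gap between strains of a side itself passed the test, Nadia from Gaighatta for ccdc39 and TM1 from SH for cep135. For cep135 TM1 did not differ by the test from either strain labelled wild. It exceeded Nadia by 0.49 (adjusted p = 0.107) and Gaighatta by 0.26 (adjusted p = 0.261). The test takes a variance shared by all 4 strains, which the SH pools widened (SD 0.48, against 0.07 in each other strain). For SH itself that variance was too small, so the call of TM1 from SH is less firm than its adjusted p. The TM1 pools (4.82 to 4.97) all lay above those of Nadia (4.35 to 4.51) and Gaighatta (4.59 to 4.75). The missing calls thus do not show TM1 to be level with these strains.

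The other 4 differences were small and their ranges overlapped. spag1a differed by 0.29 ± 0.08 (adjusted p = 0.0226), with 6.90 to 7.33 in the pools labelled domesticated and 6.54 to 7.06 in those labelled wild. ift57 differed by 0.23 ± 0.07 (adjusted p = 0.0333), with 5.30 to 5.73 against 5.08 to 5.48. ift52 differed by -0.27 ± 0.07 (adjusted p = 0.0232), with 6.00 to 6.33 against 6.14 to 6.82, and its Nadia mean of 6.27 lay beside the SH mean of 6.26. cep350 differed by -0.27 ± 0.08 (adjusted p = 0.0344), with 5.65 to 5.91 against 5.84 to 6.43, with a second probe set at -0.07 (adjusted p = 0.619). Just short of the threshold stood ccdc82 at 0.29 (adjusted p = 0.0533) and cfap126 at -0.36 (adjusted p = 0.0643).

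The list mean of radial glial markers differed with the labelled rearing history as given above, but its genes did not all move together. By limma cyp19a1b differed by -0.93 (adjusted p = 1.81e-05). The differences of glula (-0.33, adjusted p = 0.0506), slc1a2b (-0.17, adjusted p = 0.0877) and s100b (-0.17, adjusted p = 0.231) had the same sign without passing. Those of gfap (0.35, adjusted p = 0.026) and fabp7a (0.05, adjusted p = 0.738) went the other way. The calls of the 44 genes by rearing history measure the spread between pools and not between strains, of which there are 2 on each side. With strain as a random block 1 of the 44 genes was called by limma, ccdc39 (adjusted p = 0.000508), beside 31 of all 7922 probe sets. The adjusted p of cep135 was 0.166. This block fit gave all probe sets the same correlation between pools of a strain, 0.26. It thus does not measure how far the strains of a side differ in ccdc39 or cep135 itself. Its call of ccdc39 is therefore no test against the spread between strains. With each strain reduced to its mean, limma called 0 of the 44 and 0 of all 7922 probe sets. An unadjusted p under 0.05 was found for 2 of the 44 and 313 of all 7922, and ccdc39 had an adjusted p of 0.787. That fit called nothing on the array, so its 0 is no result about these genes. Without the pools labelled Gaighatta 2 were called, ccdc39 and cep135, and the ift52 difference was -0.06 (adjusted p = 0.751). Without SH M2 the count was 3. The call of ift52 was lost without Gaighatta F1 (adjusted p = 0.0529) and that of spag1a without SH M2 (adjusted p = 0.0501) or Gaighatta F1 (adjusted p = 0.0507). That of ift57 was lost without any one of TM1 F2, TM1 M2, SH M1, SH M2, Nadia F2, Gaighatta F1 or Gaighatta M1 (adjusted p of 0.0566 to 0.068), and that of cep350 without any one of TM1 F1, F2 or M1, SH M1 or M2, Nadia F1 or F2, or Gaighatta M2 (adjusted p of 0.0504 to 0.0671).

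**Figure D4:**
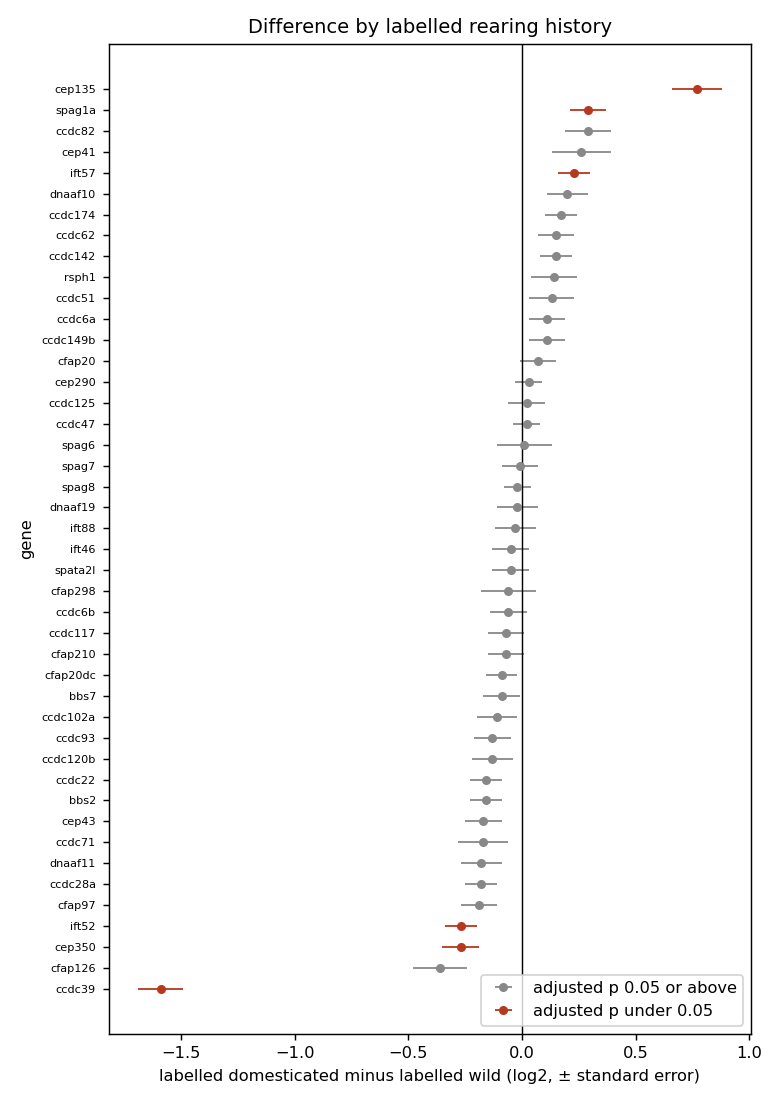
Difference of the strains labelled domesticated minus those labelled wild, on the log2 scale with its standard error, for the 44 genes in order, with the 6 genes at an adjusted p under 0.05 in red. ccdc39 at -1.59 and cep135 at 0.77 lie far from 0, and the other differences lie between -0.36 and 0.29.

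The third question was whether the sexes differed. None of the 44 genes differed between male and female pools by limma (0 of 44, against 0.151% of all probe sets), and 6 had an unadjusted p under 0.05 (13.6%, against 12.2% of all probe sets). The lowest adjusted p was that of ccdc82, 0.301, which was lower in males by 0.24 on average over strains. ccdc39 was higher in males by 0.25 ± 0.09 (unadjusted p = 0.0201, adjusted p = 0.343 by limma), with male minus female differences of 0.32, 0.17, 0.12 and 0.38 in TM1, SH, Nadia and Gaighatta. No gene had a sex difference that itself differed among strains (0 of 44, against 0.0757% of all probe sets), and 0 of 44 had an unadjusted interaction p under 0.05 by limma (4.53% of all probe sets).

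Genes of motile cilia can share a cell of origin in the brain, so their levels were set beside each other pool by pool. Whether each of them is limited to ciliated cells was not tested. Over the 16 pools the median correlation between pairs of the 11 genes of this kind (ccdc39, dnaaf10, dnaaf11, dnaaf19, rsph1, cfap126, cfap210, cfap298, spag1a, spag6 and spag8) was 0.02, and 0.11 after the strain means were removed, against 0.02 and 0.02 for all genes. These correlations are descriptions over the same 16 arrays, whose points share strain and array. They do not cover cfap97, cfap20 and cfap20dc, which stand in the axoneme group but not in this set. Of 7 marker genes of ciliated ependyma, enkur (mean 4.65) and capsla (mean 4.27) were measured. The regulators foxj1a and foxj1b were not among the probe sets analysed here.

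A single pool, Gaighatta M2, stood apart in these markers. capsla, which encodes a relative of the calcium-binding protein calcyphosine, read 6.93 there and 3.67 to 4.31 in the other 15 pools, and enkur, a protein of motile cilia, read 5.39 there and 4.37 to 4.90 elsewhere. spag6, a protein of the central apparatus, read 5.58 there and 4.37 to 4.84 elsewhere. rsph1 and cfap126 were also highest there, at 4.94 and 6.04, but close to the next pool (4.94 and 5.92), so 3 of the 11 genes had their highest value in that pool. In contrast dnaaf10 and spag8 were lowest there, at 4.39 and 3.30, and ccdc39, at 7.51, lay within its strain's range of 7.27 to 7.82. Of all 44 genes, 12 (27.3%) were highest in Gaighatta M2, against 12.35% of all probe sets. Beside the 3 named above these were ccdc22, ccdc71, ccdc93, ccdc117, cep43, cep350, ift46, ift52 and ift88. The share was thus not limited to the genes of motile cilia, and the pool had been picked by its capsla value.

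The likeness of spag6 to the ependymal markers rested on that pool. Within strains, spag6 and capsla had a correlation of 0.85 over 16 pools and -0.17 over 15 without Gaighatta M2, and for spag6 and enkur the values were 0.65 and -0.14. spag6 and rsph1 went from 0.73 to 0.38. ccdc39 had correlations of 0.03 with capsla and 0.03 with enkur over all pools, and -0.07 and -0.01 without that pool. spag6 did not pass the test among strains (largest difference 0.39 ± 0.16, adjusted p = 0.132), nor did capsla (0.83 ± 0.45, adjusted p = 0.195) or enkur (0.31, adjusted p = 0.184).

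**Figure D5:**
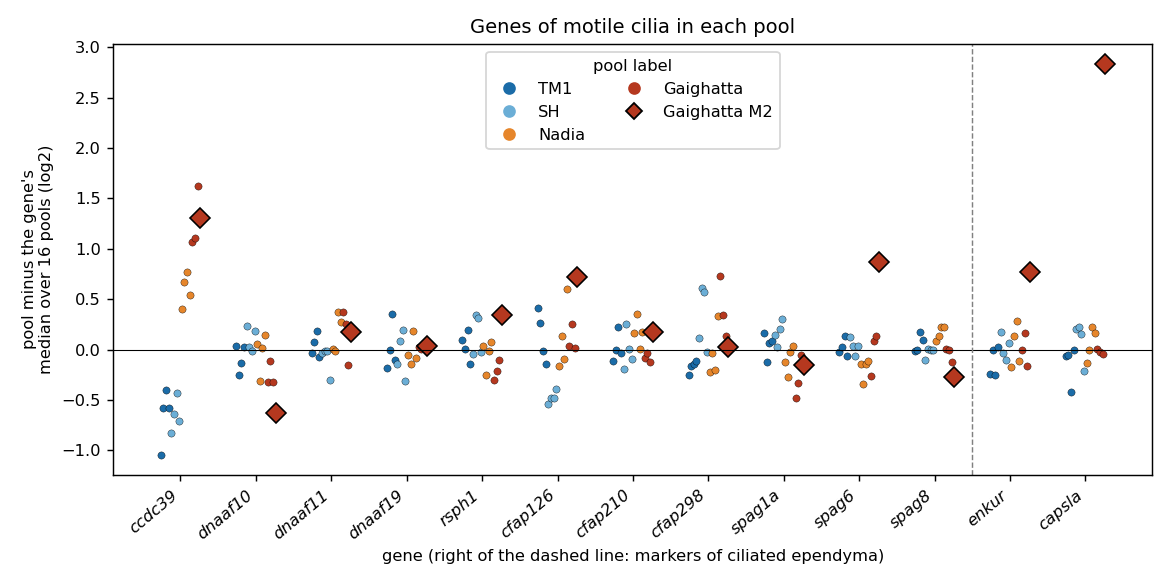
Value of each pool minus the median of the 16 pools, on the log2 scale, for 11 genes of motile cilia and, right of the dashed line, 2 markers of ciliated ependyma, colored by strain label, with a diamond for the pool Gaighatta M2. That pool is far above the rest for capsla (6.93), enkur (5.39) and spag6 (5.58), lies within its strain for ccdc39 (7.51) and is lowest for dnaaf10 (4.39) and spag8 (3.30).

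Cilium and centrosome genes with other names gave the setting for these results. Of 104 such ciliary gene names listed, older names included, 22 were found among the genes measured. Names not found are thus not all genes left unmeasured. Of the 22, 5 differed among strains (22.7%, against 34.6% of all probe sets). tmem231 and tmem107 encode membrane proteins of the transition zone at the base of the cilium. tmem231 was high in SH at 6.59 against 5.76 to 5.78 in the other strain means (difference from Nadia 0.83, adjusted p = 0.0114). Its SH pools were spread more widely (SD 0.52) than those of the other strains (SD 0.07 to 0.16). tmem107 was high in TM1 at 4.06 and low in SH at 3.48 (difference 0.57, adjusted p = 0.0274). Leaving out single pools was not tried for the genes of these lists. dynll1, a light chain of dynein motors, was lower in TM1 at 10.32 than in Gaighatta at 11.04 (difference 0.73, adjusted p = 0.000553). rab11a, a GTPase that directs vesicles to the forming cilium and to other membranes, was higher in TM1 at 7.76 than in Gaighatta at 7.13 (difference 0.63, adjusted p = 0.000832). By labelled rearing history 3 of the 22 differed (13.6%, against 12.8% of all probe sets). Both strains labelled domesticated were above both labelled wild for rab11a (mean difference 0.49, adjusted p = 0.000541). For tmem231 the mean difference of 0.41 (adjusted p = 0.0442) lay in SH alone, TM1 being at 5.77. For dynll1 the mean difference was -0.29 (adjusted p = 0.0352), but SH at 10.87 lay above Nadia at 10.72.

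Of 61 further centrosome gene names listed, older names included, 15 were found among the genes measured. Of these, 4 differed among strains (26.7%, against 34.6% of all probe sets). pafah1b1a, a regulator of dynein whose human counterpart is mutated in lissencephaly, was higher in TM1 at 8.58 than in SH at 7.61 (difference 0.97, adjusted p = 0.0237). tubg1, the γ-tubulin that nucleates microtubules, rose from 7.52 in TM1 to 8.06 in Gaighatta (difference 0.55, adjusted p = 0.00121), and mzt2b, a small subunit of the γ-tubulin ring, from 5.11 to 5.80 (difference 0.69, adjusted p = 0.00205). ckap5, a microtubule polymerase, fell from 8.29 in TM1 to 7.72 in Gaighatta (difference 0.57, adjusted p = 0.011). By labelled rearing history 2 of the 15 differed (13.3%, against 12.8% of all probe sets). For tubg1 both strains labelled domesticated lay below both labelled wild (mean difference -0.30, adjusted p = 0.0103). For mzt2b the mean difference was -0.31 (adjusted p = 0.046), but SH at 5.41 lay above Nadia at 5.32. The median of the largest difference was 0.29 for the ciliary and 0.27 for the centrosome genes, beside 0.29 for the 44.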

How the data were processed

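RNA of 16 brain pools was hybridized to Affymetrix Zebrafish Genome Arrays. The authors corrected the background, normalized by quantiles and summarized probes with RMA from the affy package, and the deposited table holds log2 values of the 7958 probe sets kept by their filters, of which 36 controls were left out. The methods also state a minimum interquartile range, 0.5, yet 854 of the 7922 probe sets tested reach it. Versions of these tools and a genome build were not given in the sources used here. The study removed probe sets with sequence polymorphism at single probes before testing, and that removal was not made here. Gene symbols came from the platform annotation (5639 tested probe sets with 1 symbol, 54 with several and 2229 with none), and the symbols of all 44 genes matched RefSeq names. Tests used limma (version 3.58.1, R version 4.3.3) on the 16 arrays, with a model of strain for the pairwise and rearing-history contrasts. A strain by sex model served for sex and the interaction. Benjamini-Hochberg adjustment ran over 7922 probe sets within each contrast, with a threshold of 0.05. By the methods each pool held the brains of a single tank of fish of the same sex and strain. The fish stayed in that tank between the behavior assay and sampling. Nothing says that pools of a group come from separate rearings before that. The p-values thus measure the spread between pools, each of them a tank, and the number of arrays limits the precision. The fits were tested on simulated data. The 44 genes, the lists and the alternatives (probe sets tested, scaling, threshold, variance model, covariates, strains and pools) were chosen with earlier results of these data known. Genes were named by the size of their difference within a role, with the genes of highest mean and of smallest difference, and Gaighatta M2, ccdc22, ccdc51, cfap298, cep41, rsph1, bbs2, dnaaf11, spata2l and spag6 were described after their values were seen.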

Additional observations from a re-analysis of the deposited data

Results flagged for a closer look

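In 15 of 176 groups of 4 pools, 1 pool lay far from the other 3 relative to the range of the group, where chance alone gives about 8.8. Among pools labelled TM1, M1 was low for ift46 (6.75, others 6.92 to 6.95), ccdc120b (5.01, others 5.59 to 5.65) and cep43 (6.90, others 7.23 to 7.30), and F2 was high for cep290 (3.42, others 3.09 to 3.12). Among pools labelled SH, F1 was low for spag8 (3.47, others 3.57 to 3.58) and high for ift88 (6.25, others 6.00 to 6.04), M1 was low for ccdc102a (6.09, others 6.67 to 6.73) and M2 was low for dnaaf11 (2.76, others 3.03 to 3.05). Among pools labelled Nadia, F2 was low for spag6 (4.37, others 4.57 to 4.60) and cep41 (3.69, others 4.05 to 4.08), M1 for ccdc71 (5.73, others 6.03 to 6.07) and M2 for spata2l (3.11, others 3.44 to 3.49). Among pools labelled Gaighatta, M2 was high for cep350 (6.43, others 5.95 to 6.02) and low for cep290 (2.94, others 3.03 to 3.05), and F1 was low for ccdc142 (6.11, others 6.24 to 6.26). The ccdc102a and spata2l probe sets carry suffixes for probes shared between transcripts.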

How the results depend on the processing

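The largest strain differences of ccdc39, cep135, cfap126, cfap97 and ift52 kept their direction and their call in every alternative that tested them. So did every other called pair of ccdc39 and cep135, pools left out in turn included. No alternative gave a strain a variance of its own for a gene, so the SH calls of cep135 were not checked for that. The cep135 probe set has a low mean (4.93, against a median of 6.15 for all probe sets). It was not tested when the probe sets of lowest mean on the array were left out, nor were dnaaf10, spag8 and ccdc62. That alternative tested 29 of the 44 genes, and 13 differed among strains and 5 by rearing history. At 0.01 the smaller differences cfap126 in TM1 against SH (adjusted p = 0.0487) and cfap97 (0.0156) and ift52 (0.013) in Nadia against Gaighatta lost their call. The first and second of these were also lost without single pools. Over all alternatives for single genes, 815 of 974 values kept direction and call, 158 lost the call and 1 turned its sign, dnaaf10 in SH against Gaighatta, at -0.10 on its probe set of lowest mean. With only probe sets of an interquartile range of at least 0.5, the filter that the methods state, 1 of the 44 genes (ccdc39) was tested, and the counts were 1 among strains, 0 for TM1 against SH, 1 in each of the 5 other pairs and 1 by rearing history. At a threshold of 0.01 they were 5 among strains, 1 for TM1 against SH, 3 for TM1 against Gaighatta, 4 for SH against Gaighatta, 1 for Nadia against Gaighatta and 2 by rearing history. Array weights gave 5 for TM1 against SH, 2 for TM1 against Nadia and 11 for TM1 against Gaighatta. With these weights all 17 genes were still called among strains. Calls were gained by bbs2, ccdc125, ccdc149b, cep41, cfap20, cfap298 and spata2l, which did not pass in the main fit. With sex as a term ccdc149b was also called among strains. ccdc82 was called by rearing history with sex as a term and with array medians subtracted. Without the pools labelled Gaighatta, 4 differed among strains (ccdc28a, ccdc39, cep135 and cfap126) and 2 by rearing history. Rearing history gave 1 gene with strain as a random block (31 of all 7922 probe sets), at a correlation of 0.26 shared by all probe sets. It gave 0 with strain means (0 of all 7922). With strain means 2 genes had an unadjusted p under 0.05 by limma (313 of all 7922 probe sets).

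With each pool left out in turn, 13 to 19 genes differed among strains, 1 to 4 for TM1 against SH, 1 to 2 for TM1 against Nadia, 4 to 7 for TM1 against Gaighatta, 2 to 4 for SH against Nadia, 6 to 12 for SH against Gaighatta, 4 to 9 for Nadia against Gaighatta and 3 to 7 by rearing history. With the replicate number as a block, 16 genes differed among strains (all but spag8, adjusted p = 0.0544) and 6 by rearing history, and ccdc6b lost its call in Nadia against Gaighatta (adjusted p = 0.0534). Deviations of same-numbered pools had correlations of -0.29 to 0.31 over 28 pairs of groups, 6 of them over 0.1. No pairing common to all groups was seen, and pairing within some of the groups was not tested.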
